A study of Mus musculus with 26 samples.

Results

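The module described here is a set of 40 mouse genes for amino acid transport, amino acid synthesis and the ATF4 stress response, taken by symbol from a table of 23420 gene symbols. It holds 2 kinases of the translation factor eIF2α, 6 stress regulators and targets, 7 enzymes of serine, glycine and one-carbon metabolism, 6 other amino acid enzymes, 9 cytosolic tRNA synthetases and 10 amino acid transporters. All 40 symbols were in the table, and 39 passed the filter on low values. Cth, the enzyme that makes cysteine from cystathionine, did not pass, and its highest value in any library was 6.5. The members were followed in all 5 cell types of the series, with the lung CD11b+ dendritic cell (DC) set against the alveolar macrophage.

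ATF4 is a transcription factor whose translation increases when eIF2α is phosphorylated, for instance by the kinase GCN2 (Eif2ak4) when amino acids run short or by PERK (Eif2ak3) under stress of the endoplasmic reticulum. Its targets include asparagine synthetase, tRNA synthetases, enzymes of serine synthesis and amino acid transporters. The mTOR kinase complex mTORC1 can also raise ATF4 translation and with it many of the same targets, so that both inputs meet on a shared set of genes.

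The series is bulk RNA-seq of FACS-purified cells from mTORΔAPC mice, in which mTOR is deleted in antigen-presenting cells, and from their wild-type littermates. Splenic CD8α+ DCs and splenic CD11b+ DCs were represented by 2 libraries of each genotype. Lung CD11b+ DCs and alveolar macrophages, both taken at steady state, and inflammatory DCs of lungs exposed to intranasal house dust mite extract (labelled day 17) were represented by 3 libraries of each genotype. The labels give neither the Cre driver and the deleted exons nor the age of the mice. They also do not say whether the libraries of a group came from separate mice. The p-values therefore measure only a spread between libraries, which may be technical. For each gene it was estimated over all groups together, and not within the groups compared. Values are normalised read counts, fold changes are differences on the log2(value + 1) scale of mTORΔAPC minus wild type unless another order is named, errors are SE from limma, and a gene was called when its adjusted p from limma was under 0.05. Gene positions are those of GENCODE on GRCm38, and the members whose position is given are protein-coding genes.

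The 26 libraries held 7366907 to 14145027 gene reads. Mtor reads were lower in every mTORΔAPC library than in every wild-type library of the same cell type, with the least separation in lung CD11b+ DCs (169 to 316 against 364 to 476) and a wider one in alveolar macrophages (71.7 to 104 against 332 to 387). Wild-type replicate 3 and mTORΔAPC replicates 2 and 3 of the lung CD11b+ DCs had the fewest genes above 0 (12992 to 13173). Summed reads of 4 Y-linked genes were at most 2.28 in the wild-type libraries of the spleen, steady-state lung DC and alveolar macrophage groups, but 659.5 to 2136 in the mTORΔAPC alveolar macrophages, 932 to 3295 in the 4 splenic mTORΔAPC libraries and 1318 in mTORΔAPC lung DC replicate 1. Sex and genotype therefore cannot be told apart in the alveolar macrophages or in either splenic DC type. Every inflammatory DC library held Y-linked reads, 1420 to 2523 in wild type and 2081 to 2429 in mTORΔAPC. Sex is thus mixed with cell type where inflammatory DCs are set against steady-state lung DCs. The lung DC libraries carried the summed conventional DC markers at 385860.0 or more, against 32735 or less in the alveolar macrophages, and the alveolar macrophage marker sum was 25578 or more in alveolar macrophages against 1503 or less in the lung DCs. Most of the DC sum was Cd74 and H2-Aa, which averaged 300670 and 75817 in mTORΔAPC lung DCs. The other conventional DC markers averaged from 628 (Flt3) to 13723 (Itgax) there.

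In lung CD11b+ DCs 14 of the 39 tested members rose in the mTORΔAPC libraries and 1 fell. In the same comparison 26.1% of all tested genes were called, 12% as higher and 14% as lower. The members that rose included the asparagine synthetase Asns, the large neutral amino acid exchanger Slc7a5 and its partner chain Slc3a2, the cystine transporter Slc7a11, and the stress regulators Ddit3 and Trib3. The median log2 difference over the 39 members was 0.24, beside -0.05 over all genes tested. Measured against the wild-type mean, 32, 25 and 32 of the 39 members were higher in mTORΔAPC replicates 1, 2 and 3. The count of called members fell to 9 without mTORΔAPC replicate 2, where 1359 of 13262 tested genes were called higher and 1427 lower. It fell to 8 without mTORΔAPC replicate 3, where 1358 of 13256 tested genes were called higher and 1558 lower. With sample weights it fell to 7, where 14.3% of all tested genes were called. With the lung DC libraries fitted alone it was 8, where 11.3% of all tested genes were called. Without mTORΔAPC replicate 1, the lung DC library with Y-linked reads, it was 15. In that fit 1844 of 13287 tested genes were called higher and 2418 lower, beside 1602 and 1869 of 13311 with every library kept.

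**Figure D1:**
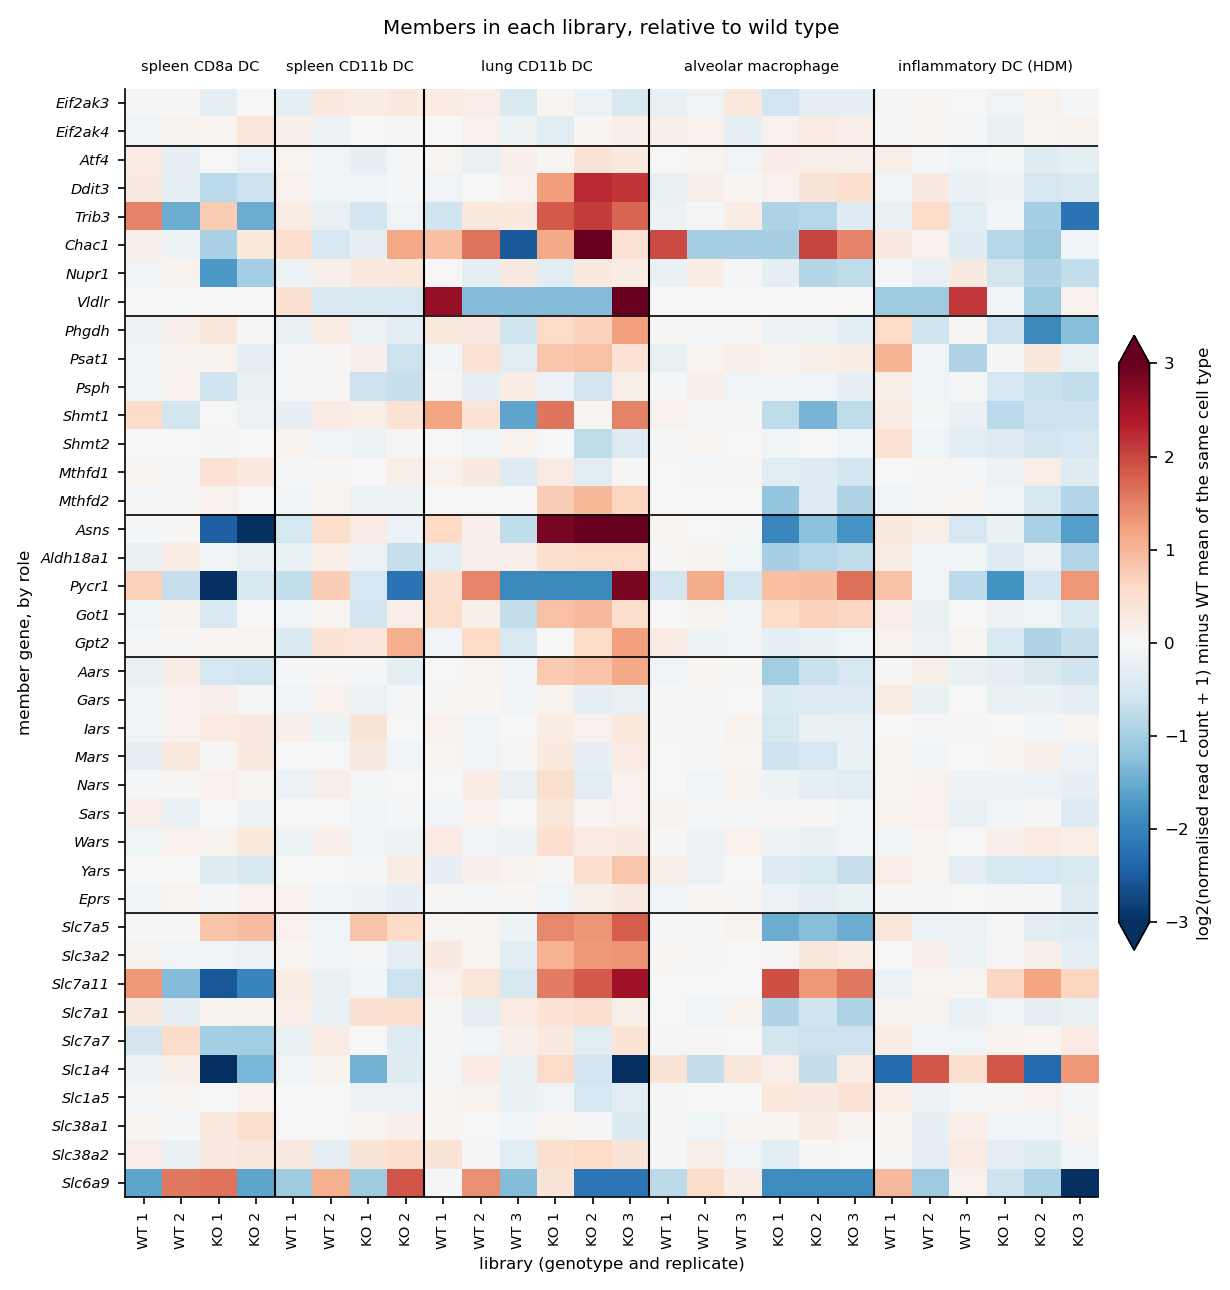
Log2(normalised read count + 1) of the 39 tested members (rows, ordered by role) in the 26 libraries (columns), each minus the wild-type mean of the same cell type, with the colour limited to 3 log2 units either way. The lung CD11b+ DC columns of the mTORΔAPC genotype are mostly red, with 14 members called higher, and the alveolar macrophage columns hold 9 members called lower.

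Several of the members are known ATF4 targets, and the composite element that ATF4 forms with a C/EBP partner reads TGATGNAA. The 250 bases before each RefSeq start site (GRCm38.p6) were searched on both strands, and 34 of the 40 members were in the RefSeq promoter table. Cth, Nars, Wars, Slc7a5, Slc1a5 and Slc38a1 were absent from it and were not searched. Of these, 10 (29.4%) held the motif in at least 1 promoter, beside 3.91% of 27025 genes, and the members were chosen in part as ATF4 targets. Of the 12 members in the table that rose in mTORΔAPC lung DCs, 4 held it, a share near that of all the members searched. Chac1, Nupr1, Vldlr, Pycr1, Gars and Slc7a7 also held it and were not called in lung DCs. The promoters of the 4 members that held it and rose are shown. Capitals mark the motif, which stands as TTGCATCA or another reverse form where it lies on the opposite strand. The match describes the letters and is not evidence of binding.
Asns (chr6:7693210-7693459, minus strand): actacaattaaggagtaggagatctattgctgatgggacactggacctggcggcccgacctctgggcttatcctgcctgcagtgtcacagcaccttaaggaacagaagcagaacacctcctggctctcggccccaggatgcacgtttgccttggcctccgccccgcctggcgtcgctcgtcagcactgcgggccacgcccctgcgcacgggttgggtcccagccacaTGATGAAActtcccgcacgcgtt
Aars (chr8:111033592-111033841, plus strand): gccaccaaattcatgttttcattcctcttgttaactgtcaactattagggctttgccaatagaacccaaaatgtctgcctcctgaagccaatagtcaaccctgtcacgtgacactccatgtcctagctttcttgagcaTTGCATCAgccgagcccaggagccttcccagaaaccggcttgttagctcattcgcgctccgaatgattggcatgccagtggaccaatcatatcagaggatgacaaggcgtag
Slc7a11 (chr3:50443614-50443863, minus strand): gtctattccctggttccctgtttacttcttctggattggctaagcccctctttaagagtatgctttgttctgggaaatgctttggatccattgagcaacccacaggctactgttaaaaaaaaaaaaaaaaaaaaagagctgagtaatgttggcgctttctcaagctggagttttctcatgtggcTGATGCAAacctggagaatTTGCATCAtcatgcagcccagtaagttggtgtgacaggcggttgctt
Got1 (chr19:43524606-43524855, minus strand): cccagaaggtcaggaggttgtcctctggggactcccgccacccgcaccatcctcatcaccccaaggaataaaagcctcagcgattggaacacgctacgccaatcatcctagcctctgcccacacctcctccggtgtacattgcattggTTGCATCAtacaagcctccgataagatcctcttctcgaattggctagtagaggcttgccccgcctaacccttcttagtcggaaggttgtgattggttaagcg

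The Asns motif began at position -23 from the RefSeq start site, and Slc7a11 held 2 copies in opposite orientation, at -66 and -47. GENCODE begins Asns at 7693254 and Aars at 111033144. By these starts the Asns motif and all of the Aars window lie inside the gene. The promoters of Ddit3, Trib3, Mthfd2 and Slc3a2, members that also rose, held no TGATGNAA in this window. The ER stress response element ERSE was found in none of the members' promoters, and in 0.13% of all genes.

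Neither of the eIF2α kinases was called in lung DCs or alveolar macrophages. Eif2ak3 averaged 307 in mTORΔAPC and 355 in wild-type lung DCs, and Eif2ak4 averaged 348 and 354. The Atf4 transcript (chr15:80255184-80257541) read 1286, 1051 and 1348 in wild-type lung DCs and 1274, 1592 and 1494 in mTORΔAPC lung DCs. These ranges overlap, and the difference of 0.24 did not pass the test (adjusted p = 0.17, limma). In alveolar macrophages Atf4 read 902, 951 and 837 in wild type and 1051, 1012 and 998 in mTORΔAPC, a difference of 0.19 that also did not pass (adjusted p = 0.39, limma). These are transcript levels, whereas the regulation of ATF4 described above acts on its translation, which was not measured.

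Ddit3 (chr10:127290774-127296288), which encodes the transcription factor CHOP, read 91.0, 98.3 and 107 in wild-type lung DCs and 238, 472 and 443 in mTORΔAPC lung DCs. Every mTORΔAPC library lay above every wild-type library, and the log2 difference was 1.89 ± 0.23 (adjusted p = 1.95e-06, limma). Alveolar macrophages held 62.8, 82.8 and 75.9 in wild type and 80.5, 96.8 and 105 in mTORΔAPC, which overlap, and the difference of 0.35 did not pass (adjusted p = 0.37, limma). Ddit3 overlaps Mars on the opposite strand, and whether the reads were counted by strand is not given in the sources used here. Mars, the methionyl-tRNA synthetase, read 609, 541 and 588 in wild-type and 715, 484 and 692 in mTORΔAPC lung DCs and was not called.

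Trib3, a pseudokinase induced by CHOP and ATF4, read 26.0, 49.7 and 49.2 in wild-type lung DCs and 146, 175 and 136 in mTORΔAPC lung DCs, with no overlap and a log2 difference of 1.90 ± 0.63 (adjusted p = 0.029, limma). The call was lost without wild-type replicate 1 or without mTORΔAPC replicate 2 or 3. The alveolar macrophage values were 36.5, 39.7 and 47.7 in wild type and 21.2, 22.4 and 31.1 in mTORΔAPC, which did not pass (-0.72, adjusted p = 0.54, limma). Of the other 3 stress targets, Nupr1, a small stress-induced nuclear protein, fell in mTORΔAPC alveolar macrophages (-0.64, adjusted p = 0.040, limma), a call lost without wild-type replicate 2 or 3 or mTORΔAPC replicate 2 or 3. Chac1, which breaks down glutathione, averaged 22.0 against 8.89 in lung DCs with a difference that was not called. Vldlr, a lipoprotein receptor, stayed below 10 on average in lung DCs.

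Of the 7 enzymes of serine, glycine and one-carbon metabolism, Phgdh and Mthfd2 rose in mTORΔAPC lung DCs and Mthfd2 fell in mTORΔAPC alveolar macrophages. The shares called, 28.6% and 14.3%, were near those of all tested genes, 26.1% and 16.9%. Phgdh, which commits glycolytic 3-phosphoglycerate to serine synthesis, read 47.7, 46.5 and 25.0 in wild-type lung DCs and 1716, 1607 and 1703 in wild-type alveolar macrophages. Per kilobase of annotated exon these are averages of 16.0 and 674. In mTORΔAPC lung DCs Phgdh read 57.2, 62.4 and 90.4, above every wild-type library, with a log2 difference of 0.83 ± 0.30 (adjusted p = 0.042, limma) that did not stay called without wild-type replicate 3 or mTORΔAPC replicate 2 or 3. In mTORΔAPC alveolar macrophages it read 1501, 1507 and 1353, and the difference of -0.21 did not pass. With the alveolar macrophage libraries fitted alone it was called (adjusted p = 0.034, limma).

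Mthfd2, the mitochondrial folate enzyme, read 832, 824 and 809 in wild-type lung DCs and 1360.3, 1628 and 1289 in mTORΔAPC lung DCs, a rise of 0.79 ± 0.16 (adjusted p = 0.00095, limma). Alveolar macrophages showed a fall, from 334, 333 and 337 to 149.5, 254 and 179.96 (-0.81 ± 0.16, adjusted p = 0.00080, limma). In neither cell type did the genotypes overlap. Shmt1, the cytosolic serine hydroxymethyltransferase, read 39.0, 22.2 and 4.84 in wild-type and 52.3, 17.2 and 47.9 in mTORΔAPC lung DCs, where replicate 2 lay among the wild-type values and the difference of 1.04 did not pass (adjusted p = 0.12, limma). Without wild-type replicate 1 it was 1.64 and without mTORΔAPC replicate 2 it was 1.54, both called, and without wild-type replicate 3 it was 0.25. In alveolar macrophages Shmt1 read 170.2, 148 and 147 in wild type and 90.3, 58.2 and 90.4 in mTORΔAPC, and did not pass. That fall was called with sample weights and with the alveolar macrophage libraries fitted alone (adjusted p of 0.0018 to 0.0036, limma). Psat1, Psph, Shmt2 and Mthfd1 were called in neither cell type.

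Asparagine synthetase (Asns, chr6:7675169-7693254) showed the largest rise of the members in lung DCs. It read 36.8, 26.4 and 13.7 in wild type and 178, 328 and 329 in mTORΔAPC, so that the lowest mTORΔAPC library lay above the highest wild-type library. The log2 difference was 3.44 ± 0.45 (adjusted p = 4.8e-06, limma). In alveolar macrophages it read 115, 108 and 104 in wild type and 27.4, 45.7 and 31.1 in mTORΔAPC, a fall of -1.66 ± 0.45 (adjusted p = 0.011, limma), with an adjusted p of 0.051 without mTORΔAPC replicate 1. Per kilobase, the averages were 9.38 and 102 in wild-type and mTORΔAPC lung DCs and 39.9 and 12.7 in the alveolar macrophages.

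Aldh18a1, which begins proline synthesis from glutamate, read 332, 461 and 460.3 in wild-type lung DCs and 579, 608 and 601 in mTORΔAPC lung DCs (0.53 ± 0.18, adjusted p = 0.033, limma), a call lost without wild-type replicate 1 or without mTORΔAPC replicate 2 or 3. In alveolar macrophages it fell from 780.1, 823 and 700.4 to 382, 424 and 449 (-0.87 ± 0.18, adjusted p = 0.0011, limma). Got1, the cytosolic aspartate aminotransferase, read 1005, 789.8 and 422 in wild-type and 1275, 1353 and 999 in mTORΔAPC lung DCs, where the genotypes overlap (0.79 ± 0.23, adjusted p = 0.013, limma). The Got1 call was lost without wild-type replicate 3 (0.43) and without mTORΔAPC replicate 2 (0.70). Alveolar macrophages held 239.9, 253 and 218 in wild type and 345, 382 and 362 in mTORΔAPC, a difference of 0.61 that did not pass (adjusted p = 0.068, limma). It was called under 3 alternatives, with adjusted p from 0.00062 to 0.030 (limma). These were sample weights, a term for libraries with fewer detected genes, and the alveolar macrophage libraries fitted alone. Gpt2, the mitochondrial alanine aminotransferase, and Pycr1, a proline synthesis enzyme, were called in neither cell type.

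Of the 9 cytosolic tRNA synthetases, enzymes that charge tRNAs with their amino acids, 3 rose in lung DCs (Aars, Wars and Yars) and 3 fell in alveolar macrophages (Aars, Gars and Yars). These are 33.3% in each cell type, beside 26.1% and 16.9% of all tested genes. Aars, the alanyl enzyme, read 629, 668 and 596 in wild-type lung DCs and 1085, 1137 and 1382 in mTORΔAPC lung DCs (0.92 ± 0.14, adjusted p = 3.06e-05, limma). The alveolar macrophage values were 1136, 1252 and 1237 in wild type and 588, 756 and 849 in mTORΔAPC (-0.74 ± 0.14, adjusted p = 0.00040, limma). The range of the mTORΔAPC lung DCs took in that of the wild-type alveolar macrophages, and the genotypes did not overlap in either cell type.

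Yars, the tyrosyl enzyme, read 298, 394 and 381 in wild-type lung DCs and 363, 502 and 633 in mTORΔAPC lung DCs, an overlapping rise of 0.45 ± 0.17 (adjusted p = 0.048, limma). Alveolar macrophages held 555, 432 and 490.1 in wild type and 375, 359 and 305 in mTORΔAPC (-0.50 ± 0.17, adjusted p = 0.040, limma). Leaving out wild-type replicate 1 or 3 or mTORΔAPC replicate 2 or 3 ended the lung call, and 5 of the 6 alveolar macrophage libraries ended the other call when left out. Wars, the tryptophanyl enzyme, read 582, 455 and 443 in wild-type and 693, 576 and 592 in mTORΔAPC lung DCs (0.34 ± 0.12, adjusted p = 0.040, limma), also with overlap, and its call was lost without wild-type replicate 2 or 3 or mTORΔAPC replicate 1 or 3. In alveolar macrophages Wars read 658, 571 and 701 in wild type and 576, 556 and 596 in mTORΔAPC and did not pass. Iars, the isoleucyl enzyme, read 962, 822 and 875 in wild-type and 1034, 968 and 1095 in mTORΔAPC lung DCs, against 1049.6, 1074 and 1174 and then 792, 959 and 935 in alveolar macrophages. Neither Iars difference passed by itself. The fall in alveolar macrophages was called with sample weights and with these libraries fitted alone (adjusted p of 0.017 to 0.018, limma).

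Of the transporters, the role with the most members, 4 were higher and 1 lower of 10 in lung DCs (50% called) and 2 higher and 2 lower in alveolar macrophages (40% called). Over all tested genes these shares were 26.1% and 16.9%. Slc7a5 (LAT1, chr8:121881150-121907694) exchanges large neutral amino acids across the plasma membrane. It read 466, 460.0 and 395 in wild-type lung DCs and 1191, 1106 and 1540.0 in mTORΔAPC lung DCs (1.53 ± 0.15, adjusted p = 6.7e-08, limma). In alveolar macrophages it read 1043, 1035 and 1168 in wild type and 382, 446 and 383 in mTORΔAPC (-1.42 ± 0.15, adjusted p = 1.8e-07, limma). No library of one genotype reached the range of the other in either cell type.

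Slc3a2 (chr19:8706882-8723369) encodes the heavy chain CD98 that LAT1 and the cystine transporter both need. It read 1173, 1043 and 768 in wild-type lung DCs and 2035, 2408 and 2479.6 in mTORΔAPC lung DCs (1.23 ± 0.14, adjusted p = 6.5e-07, limma). In alveolar macrophages it did not follow Slc7a5, reading 1818, 1676 and 1780.2 in wild type and 1792, 2239 and 2064 in mTORΔAPC (0.20, adjusted p = 0.39, limma). With sample weights this difference was called as higher (adjusted p = 0.036, limma).

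Slc7a11 (xCT, chr3:49892526-50443614) imports cystine in exchange for glutamate and was the member called higher in both cell types. It read 276, 325 and 181 in wild-type and 737, 912 and 1488 in mTORΔAPC lung DCs (1.98 ± 0.40, adjusted p = 0.00085, limma). Alveolar macrophages held 168, 164 and 164 in wild type and 630.0, 408 and 495 in mTORΔAPC (1.60 ± 0.40, adjusted p = 0.0064, limma). In neither cell type did the genotypes overlap.

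Slc38a2, a sodium-coupled carrier of neutral amino acids, read 2612, 1899 and 1571 in wild-type and 2767, 2929.6 and 2580.1 in mTORΔAPC lung DCs (0.47 ± 0.17, adjusted p = 0.041, limma), with wild-type replicate 1 inside the mTORΔAPC range, and lost its call when any one of these libraries but wild-type replicate 1 was left out. Alveolar macrophages held 1752, 2038 and 1675 in wild type and 1428, 1859 and 1834 in mTORΔAPC. Slc1a5 (ASCT2, a glutamine carrier) was the member that fell in lung DCs, from 2603, 2635 and 2152 to 2284, 1690.1 and 1981 (-0.32 ± 0.10, adjusted p = 0.028, limma), again with overlap. It rose in alveolar macrophages from 1321, 1382 and 1380.2 to 1682, 1642 and 1812 (0.33 ± 0.10, adjusted p = 0.031, limma). Both Slc1a5 calls were lost when single libraries were left out, the lung call for wild-type replicate 1 or 2 or mTORΔAPC replicate 2 or 3 and the alveolar macrophage call for each of its 6 libraries. Slc7a1, the carrier of cationic amino acids, read 245, 194 and 281 in wild-type and 315, 330.0 and 267 in mTORΔAPC lung DCs, which did not pass. In alveolar macrophages Slc7a1 fell from 147, 137 and 158 to 78.8, 96.8 and 77.6 (-0.80 ± 0.19, adjusted p = 0.0033, limma). Slc7a7, Slc38a1, Slc1a4 and Slc6a9 were called in neither cell type.

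**Figure D2:**
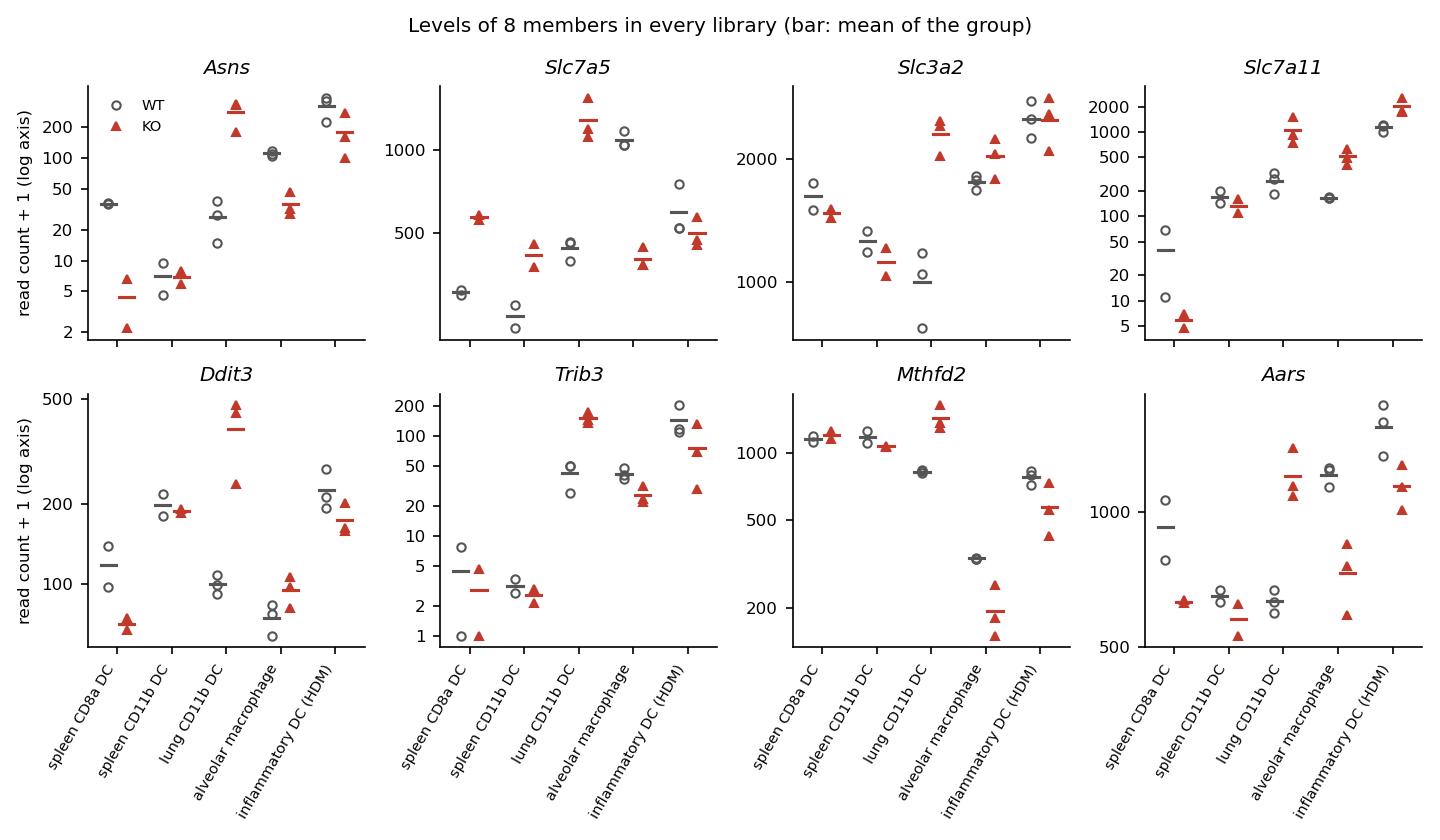
Normalised read count + 1 (log axis) of 8 members in every library of the 10 groups, with wild type as open grey circles, mTORΔAPC as red triangles and the group mean as a bar. Asns and Slc7a5 lie higher in mTORΔAPC than in wild-type lung CD11b+ DCs and lower in mTORΔAPC than in wild-type alveolar macrophages, while Slc7a11 lies higher in both.

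In alveolar macrophages 2 of the 39 members rose in mTORΔAPC and 9 fell, where 16.9% of all tested genes were called, 10.5% as higher and 6.39% as lower. The median over the members was -0.21, beside 0.02 over all genes tested. All 11 called members had no overlap between the genotypes, as had 98.4% of all genes called there. In lung DCs 10 of the 15 called members (66.7%) had none, beside 81.2% of all genes called. Besides the members already named, Gars, the glycyl synthetase, fell from 3059.8, 2846 and 2997 to 2215, 2282 and 2263 (-0.40, adjusted p = 0.014, limma), and its adjusted p was 0.056 without wild-type replicate 1. With sample weights 4 members were higher and 17 lower in alveolar macrophages, where 33.9% of all tested genes were called. With these 6 libraries fitted alone 3 were higher and 17 lower, where 37.0% of all tested genes were called.

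The mTORΔAPC effect in alveolar macrophages minus that in lung DCs was tested in the same model. It was called for 14 members, 13 of them lower and 1 higher, where 16.8% of all tested genes were called, 10.2% as higher and 6.6% as lower. Asns had the largest difference of the effects (-5.10 ± 0.63, adjusted p = 6.7e-06, limma), followed by Slc7a5 (-2.95 ± 0.21, adjusted p = 1.35e-09, limma). Aars differed by -1.66, Mthfd2 by -1.60, Ddit3 by -1.54, Aldh18a1 by -1.40 and Slc3a2 by -1.03. Iars and Slc7a1, which were not called in lung DCs, differed by -0.52 and -1.15, and Slc1a5 was the member with a difference above 0 (0.65). The median of the difference over the members was -0.54, beside 0.07 over all genes. Of the 14 calls, 10 held under every alternative run, and those of Trib3, Shmt1, Iars and Wars did not. The matching share over all genes was not computed. Called in both cell types were 8 of the 39 tested members, beside 6.99% of all tested genes. Of these 8, Slc7a11 moved the same way and Mthfd2, Asns, Aldh18a1, Aars, Yars, Slc7a5 and Slc1a5 moved in opposite directions, as did 198 of the 931 genes called in both (21.3%).

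**Figure D3:**
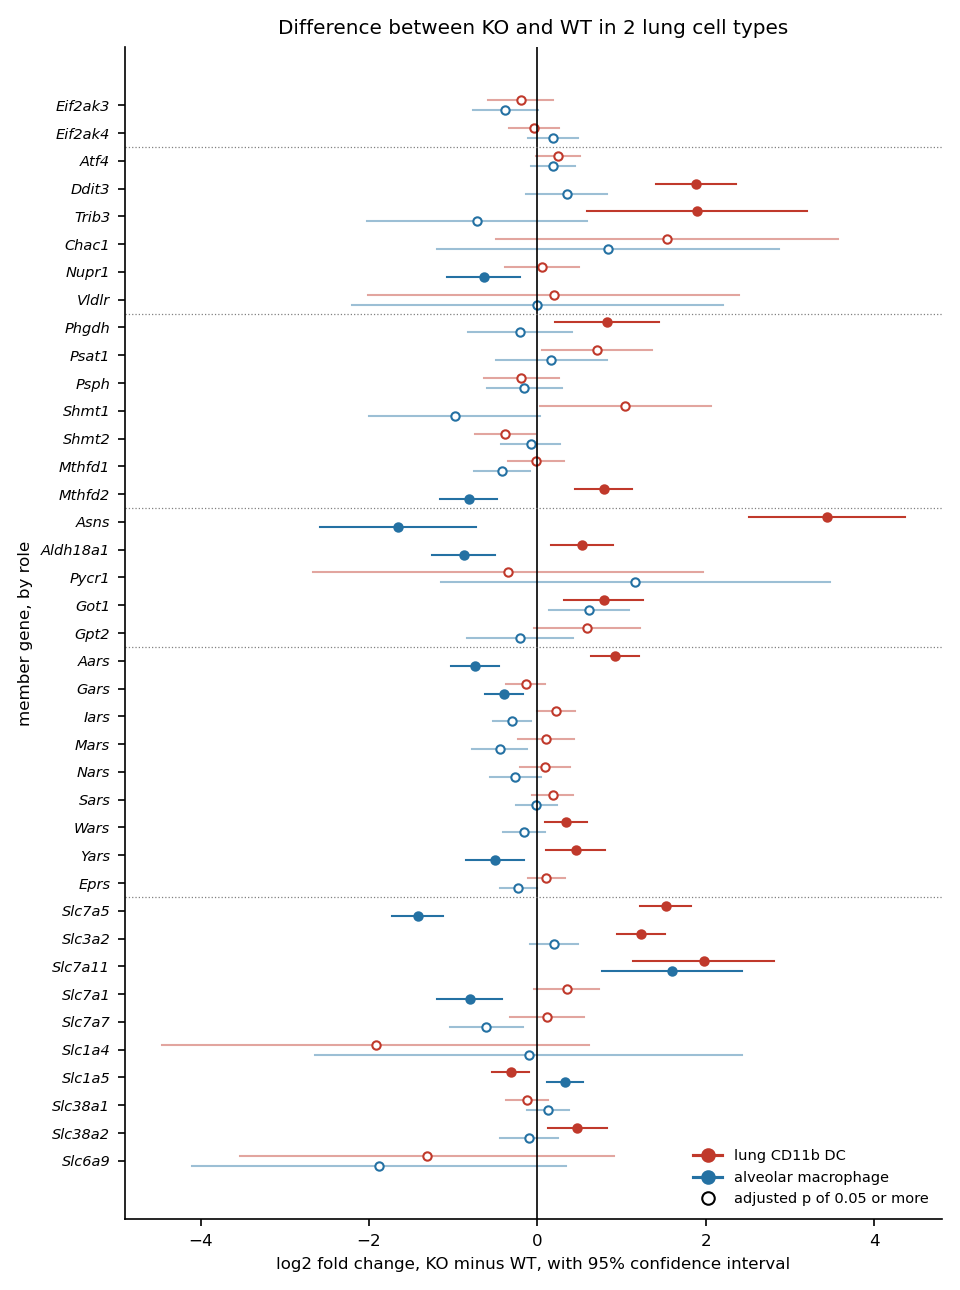
Log2 difference of mTORΔAPC minus wild type with its 95% confidence interval for the members, in lung CD11b+ DCs (red) and alveolar macrophages (blue), with open symbols where the adjusted p was 0.05 or more. Asns stands at 3.44 in lung DCs and -1.66 in alveolar macrophages, and Slc7a11 lies above 0 in both, at 1.98 and 1.60.

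The order of the 2 cell types also depended on the genotype. Between wild-type libraries 16 members were higher and 7 lower in alveolar macrophages than in lung DCs, where 51.2% of all tested genes were called, 24% as higher and 27.2% as lower. Between mTORΔAPC libraries 6 were higher and 15 lower, where 45.6% were called, 23.8% as higher and 21.8% as lower. Asns was higher in wild-type alveolar macrophages than in wild-type lung DCs by 2.15 ± 0.45 and lower between the mTORΔAPC cells by -2.95 ± 0.45 (adjusted p = 0.00030 and 8.5e-06, limma). Slc7a5 was higher by 1.30 and then lower by -1.65, Aars higher by 0.94 and then lower by -0.72, Aldh18a1 higher by 0.89 and then lower by -0.51, and Yars higher by 0.46 and then lower by -0.50. These 5 members (12.8%) were called in both genotypes with opposite signs, beside 1.04% of all tested genes, though Yars and Aldh18a1 lost a call under some alternatives. Other members kept their order in both genotypes. Phgdh was higher in alveolar macrophages in both (5.42 and 4.38), and Got1 (-1.55 and -1.72) and Mthfd2 (-1.29 and -2.89) were lower in both. Slc1a4, a carrier of small neutral amino acids, averaged under 1 in alveolar macrophages of either genotype and 55.0 in wild-type lung DCs. Its call as lower between mTORΔAPC libraries was lost under 8 alternatives (adjusted p of 0.052 to 0.20, limma).

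**Figure D4:**
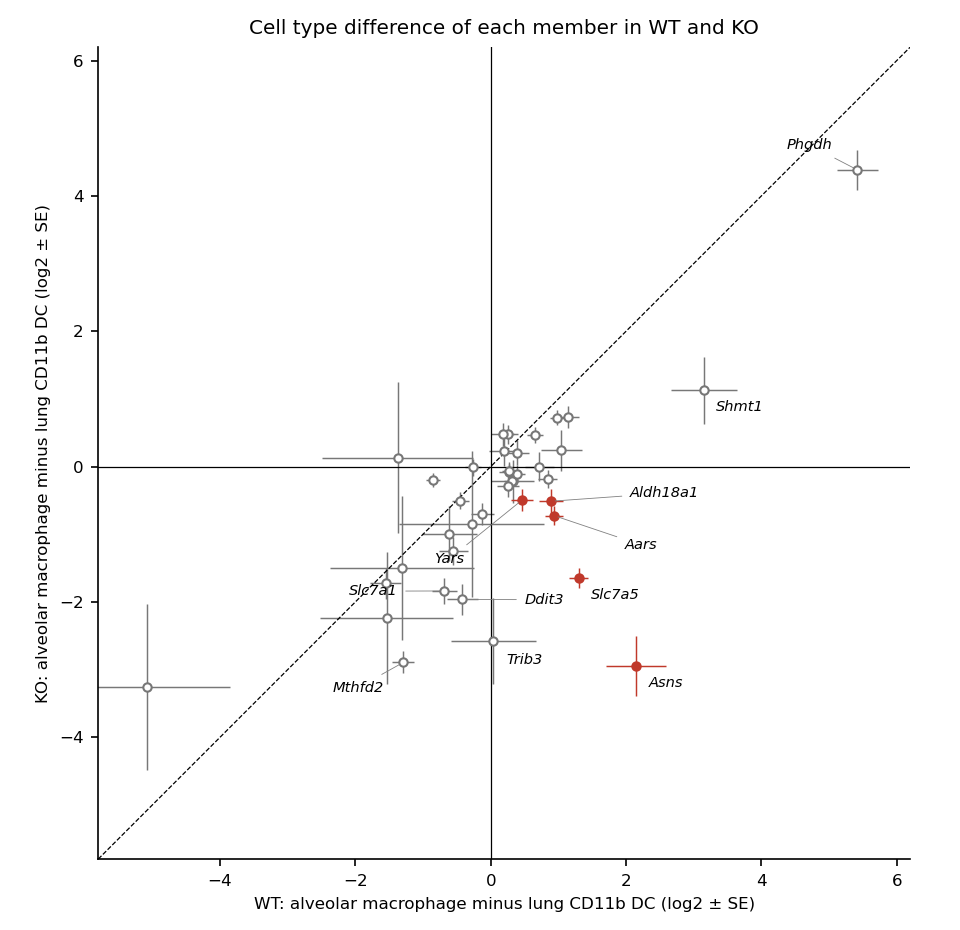
Log2 difference of alveolar macrophages minus lung CD11b+ DCs among wild-type libraries (x axis) and among mTORΔAPC libraries (y axis) for the members, with SE bars, and a dashed line where both are equal. The 5 members called in both genotypes with opposite signs are red and lie at the lower right, with Asns at 2.15 and -2.95, while Phgdh lies at the upper right.

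In inflammatory DCs of house dust mite-exposed lungs no member rose in mTORΔAPC and 1 fell, where 3.37% of all tested genes were called, 1.45% as higher and 1.92% as lower, and the median was -0.25 beside -0.02 over all genes. Phgdh fell from 809, 354 and 552 to 346, 141 and 224, with no overlap (-1.28 ± 0.30, adjusted p = 0.016, limma), and the call was lost without wild-type replicate 1 or 3 or mTORΔAPC replicate 2 or 3. Asns read 385, 357 and 221 in wild-type and 272, 158 and 98.1 in mTORΔAPC inflammatory DCs, ranges that overlap and were not called. Its wild-type level was above that of all 3 wild-type steady-state lung DC libraries. Slc7a11 read 1000.2, 1188 and 1194 in wild type and 1717, 2556 and 1769 in mTORΔAPC, without overlap and without a call. Slc7a5 read 749, 523 and 520.3 and then 569.8, 474 and 453. The effect in inflammatory DCs minus that in lung CD11b+ DCs was called for 12 members, all lower, where 13% of all tested genes were called, 6.08% as higher and 6.95% as lower, among them Asns (-4.38), Ddit3 (-2.26), Slc7a5 (-1.77), Aars (-1.36) and Slc3a2 (-1.24). The alveolar macrophage marker sum ranged from 6814 to 20366 in wild-type and from 2748 to 4846 in mTORΔAPC inflammatory DCs, and its part in these values was not tested.

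In the spleen Slc7a5 was the member called higher in both DC types. Splenic CD11b+ DCs read 275 and 227 in wild type and 456 and 376 in mTORΔAPC (0.73 ± 0.18, adjusted p = 0.040, limma), where 1 member was called and 1.52% of all tested genes were, 1.28% as higher, and this call was lost without wild-type replicate 2 or either mTORΔAPC replicate. Splenic CD8α+ DCs read 299.8 and 310.2 in wild type and 556 and 582 in mTORΔAPC (0.90 ± 0.18, adjusted p = 0.0024, limma). In the CD8α+ DCs 1 member rose and 4 fell (Asns, Slc7a11, Nupr1 and Slc7a7), where 5.13% of all tested genes were called, 1.5% as higher and 3.63% as lower, and 2 calls were left without mTORΔAPC replicate 1. Asns read 34.3 and 35.5 in wild-type and 5.58 and 1.20 in mTORΔAPC CD8α+ DCs (-3.24, adjusted p = 0.00040, limma), and 3.59 and 8.46 against 6.87 and 4.86 in splenic CD11b+ DCs, where it was not called. Slc7a11 read 66.8 and 10.1 in wild-type and 3.72 and 6.00 in mTORΔAPC CD8α+ DCs, and lost its call without wild-type replicate 1 or mTORΔAPC replicate 1. Slc7a7, the light chain that exports cationic amino acids, fell by 1.03 on the log2 scale, and lost its call without wild-type replicate 2 or either mTORΔAPC replicate. The monocyte and macrophage marker sum was 18106 to 28287 in wild-type and 3707 to 4213 in mTORΔAPC CD8α+ DCs, and its part in the 4 lower members was not tested.

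The effect in splenic CD11b+ DCs minus that in lung CD11b+ DCs was called for 8 members, all lower, where 12.5% of all tested genes were called, 5.86% as lower, and for 5 without splenic mTORΔAPC replicate 2. They were Asns (-3.40), Slc7a11 (-2.33), Ddit3 (-1.96), Slc3a2 (-1.40), Aars (-1.10), Aldh18a1 (-0.95), Mthfd2 (-0.93) and Slc7a5 (-0.80). The calls of Asns, Ddit3, Slc3a2 and Aars held under every alternative run, and the other 4 did not. This comparison, the one with inflammatory DCs and the one with alveolar macrophages share the lung DC libraries. Across the 10 groups the average of Slc7a5 was highest in mTORΔAPC lung DCs (1279) and wild-type alveolar macrophages (1082) and lowest in wild-type splenic CD11b+ DCs (251).

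Further genes of the same pathways were read from lists that hold no member. Of 16 other tested genes of the integrated stress response, 4 rose and 3 fell in mTORΔAPC lung DCs (43.8% called), where 26.1% of all tested genes were called. Eif2ak2, the RNA-activated eIF2α kinase PKR, which interferon also induces, rose by 2.05, Atf3, a stress-induced transcription factor, fell by 0.99 and Cebpb, a C/EBP factor, rose by 0.70. Of 11 other cytosolic tRNA synthetases, Cars (0.81) and Hars (0.59) rose and Vars (-0.52) fell (27.3% called), while of 17 mitochondrial synthetases none rose and Vars2 (-1.07) fell (5.88% called). Of 13 other amino acid transporters 4 rose and 2 fell (46.2% called), among them Slc7a2 (3.58), a cationic amino acid carrier, Slc7a8 (2.15), another CD98-linked exchanger of neutral amino acids, and the lysosomal Slc38a9 (-0.83). Of 18 other amino acid and one-carbon enzymes 1 rose and 2 fell (16.7% called). The shares of the other synthetases and enzymes were near or below that of all genes.

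The background for the stress genes outside the amino acid arm was again 26.1% of all tested genes called in lung DCs and 16.9% in alveolar macrophages. Of 17 chaperones and unfolded protein response genes none rose and 4 fell in mTORΔAPC lung DCs, Ern1, the sensor IRE1α, by -0.77 among them, and 8 of the 17 fell in alveolar macrophages, shares of 23.5% and 47.1%. Of 10 targets and regulators of the oxidative stress factor NRF2, to which Slc7a11 also belongs, 5 rose and none fell in lung DCs, including the peroxiredoxin Prdx1 (0.95), the thioredoxin reductase Txnrd1 (0.89) and the heme oxygenase Hmox1 (0.65), and 1 rose in alveolar macrophages, shares of 50% and 10%. All 10 interferon-stimulated genes rose in lung DCs, as did 9 of 10 in alveolar macrophages, with Ifit2 at 4.47 in lung DCs. Of 12 cell cycle genes 3 fell in lung DCs and 6 in alveolar macrophages, shares of 25% and 50%.

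Markers of the cell types moved with genotype in lung DCs and alveolar macrophages, and also in inflammatory DCs, where 1 member was called. In inflammatory DCs 1 of 7 conventional DC markers rose and 4 fell (71.4% called, beside 3.37% of all tested genes). Of 7 CD11b+ DC markers 2 rose and 2 fell in these cells (57.1% called). There 4 of 10 alveolar macrophage markers fell, and none of 12 monocyte and macrophage markers was called. In mTORΔAPC lung DCs 4 of 7 conventional DC markers fell (Flt3, Dpp4, Cd74 and H2-Aa) and Itgax rose, and 3 of 7 CD11b+ DC markers fell (Cd209a, Mgl2 and Clec10a), with a summed level of 24492 to 34967 against 63082 to 69988 in wild type. Of 12 monocyte and macrophage markers 4 rose and 1 fell, with a summed level of 66362 to 86478 in mTORΔAPC and 61404 to 63411 in wild type. Of 8 CD8α+ DC markers 1 rose and 3 fell, with a summed level of 3436 to 4447 in mTORΔAPC and 2158 to 2656 in wild type. The shares called in lung DCs were 71.4% of the conventional DC markers, 42.9% of the CD11b+ DC markers, 50% of the CD8α+ DC markers and 41.7% of the monocyte and macrophage markers, beside 26.1% of all tested genes. In mTORΔAPC alveolar macrophages 6 of 12 monocyte and macrophage markers rose and 1 fell (58.3% called, beside 16.9% of all tested genes), with a sum of 29708 to 31193 against 22168 to 23433 in wild type. There 3 of 10 alveolar macrophage markers fell, and the T cell marker sum was 78.8 to 136 against 10.8 to 13.7. In mTORΔAPC lung DCs 6 of these 10 alveolar macrophage markers fell (60% called). Their sum there was 641 to 717 against 1087 to 1503 in wild type. No DC, monocyte, macrophage or T cell marker in the table was at 0 in every library of a lung DC or alveolar macrophage group. In bulk samples fewer cells of a type and less RNA per cell cannot be told apart, and the part of cell composition in the members' differences was not tested.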

How the data were processed

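The deposited file is a table of 26 libraries whose values are read counts divided by DESeq2 size factors, a normalised signal. Per the submitters' processing notes, the authors used STAR 2.3.1s, HTSeq and DESeq2 1.10.1 with mm10, and the strand setting is not given in the sources used here. Multiplying by recovered size factors gave whole reads for 100% of the values (tolerance 1e-06).

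Log2(value + 1) of the 13311 genes with at least 10 in at least 2 libraries was fitted with limma 3.58.1 (R 4.3.3, empirical Bayes with trend) as 10 group means, with Benjamini-Hochberg adjustment within each contrast over all tested genes. The script was tested on simulated data. Size factors ranged from 0.754 to 1.48 and replicates were not duplicates. Replicate numbers follow accession order and only name libraries. Alternatives were pseudocounts of 0.25 and 8, no filter, TMM rescaling, edgeR 4.0.16 and DESeq2 1.42.0 on the recovered reads, sample weights, the contrasted groups alone and each library left out. A term for libraries with fewer than 13300 genes above 0 was added after seeing the data.

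The members and gene lists were chosen with earlier results of these data known. Members called in lung CD11b+ DCs or in the difference of effects, and Atf4, were given per library, with up to 3 genes per other list by smallest p. Nupr1, Gars, Slc7a7, Mars and the other genes named outside this rule were chosen after their values were seen. Monocyte and macrophage markers are given as counts and sums, and single ones are not reported here.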

Additional observations from a re-analysis of the deposited data

Results flagged for a closer look

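Results are named here because the mTORΔAPC effect differed between cell types by limma's test of the difference, over all 13311 tested genes. For alveolar macrophages minus lung CD11b+ DCs the differences in log2 effect were, in the stress genes, -1.54 for Ddit3 and -2.62 for Trib3. In the enzymes they were -2.02 for Shmt1, -1.60 for Mthfd2, -5.10 for Asns and -1.40 for Aldh18a1. In the tRNA synthetases they were -1.66 for Aars, -0.52 for Iars, -0.49 for Wars and -0.96 for Yars. In the transporters they were -2.95 for Slc7a5, -1.03 for Slc3a2, -1.15 for Slc7a1 and 0.65 for Slc1a5.

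For inflammatory DCs minus lung CD11b+ DCs the differences were -2.26 for Ddit3, -2.99 for Trib3, -2.11 for Phgdh, -1.28 for Mthfd2, -4.38 for Asns, -1.01 for Aldh18a1 and -1.04 for Got1. They were -1.36 for Aars, -0.94 for Yars, -1.77 for Slc7a5, -1.24 for Slc3a2 and -0.72 for Slc38a2.

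For splenic CD11b+ DCs minus lung CD11b+ DCs they were -1.96 for Ddit3, -0.93 for Mthfd2, -3.40 for Asns, -0.95 for Aldh18a1 and -1.10 for Aars. They were -0.80 for Slc7a5, -1.40 for Slc3a2 and -2.33 for Slc7a11. These comparisons share the lung DC libraries, and no cause of the differences was tested.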

How the results depend on the processing

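Under every alternative run, 7 of the 15 member calls in lung CD11b+ DCs held (Ddit3, Mthfd2, Asns, Aars, Slc7a5, Slc3a2 and Slc7a11), as did 6 of 11 in alveolar macrophages and 10 of 14 for the difference of the effects. The share of all called genes that held in the same way was not computed. The count of called members in lung DCs was 7 with sample weights and 8 with the contrasted groups alone, and 8 to 15 with 1 library left out (9 without mTORΔAPC replicate 2, 8 without replicate 3). In alveolar macrophages it was 21 with sample weights, 20 alone and 8 to 9 with 1 library left out. Over all genes the lung calls were 896 higher and 1001 lower with weights and 715 and 656 alone, beside 1602 and 1869 in the report, and the alveolar macrophage calls 2503 and 2006 with weights and 2153 and 2091 alone, beside 1397 and 850. With 1 library left out the lung calls over all genes were 1358 to 1844 higher and 1420 to 2418 lower. The alveolar macrophage calls were then 1075 to 1195 higher and 565 to 671 lower. In inflammatory DCs the count of 1 became 2 with a pseudocount of 8, edgeR, DESeq2, the added term or the groups alone, 3 with sample weights, and 0 to 2 with 1 library left out. Over all genes, leaving out 1 inflammatory DC library gave 89 to 171 higher and 112 to 269 lower calls. In splenic CD11b+ DCs it was 0 with edgeR and 0 to 1 with 1 library left out. In splenic CD8α+ DCs it was 1 alone and 2 to 5 with 1 library left out. The difference of splenic from lung CD11b+ DCs had 5 to 9 with 1 library left out. Leaving out a library gave 10 to 16 for the difference of alveolar macrophages from lung DCs and 10 to 15 for that of inflammatory DCs. Over all genes these fits gave 1054 to 1761 higher and 667 to 1035 lower calls for alveolar macrophages. For inflammatory DCs they gave 534 to 1351 higher and 709 to 1163 lower calls. Signs turned for Slc38a2 in alveolar macrophages (0.025 without mTORΔAPC replicate 1, the lowest -0.17 without replicate 2) and for the difference of alveolar macrophages from lung DCs in Atf4 (0.024 with the added term, 0.051 without lung wild-type replicate 2, 0.012 without lung mTORΔAPC replicate 2, the lowest -0.15 without lung mTORΔAPC replicate 1) and Got1 (0.095 with weights, 0.19 without lung wild-type replicate 3, the lowest -0.44 without lung wild-type replicate 1), all uncalled, and the cause was not tested. Of the other values for single members 1899 kept their direction and call, 237 lost a call and 13 gained one. No paired analysis was possible because the labels number the libraries in 1 series without shared replicate numbers. Splenic mTORΔAPC replicates 1 and 2 had Y-linked sums of 977 and 3049 in CD8α+ DCs and of 932 and 3295 in CD11b+ DCs. Whether the splenic DC types came from the same mice was not tested. Low members, such as Vldlr, Pycr1, Slc6a9 and Chac1, are limited by few reads.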
